A study of Mus musculus with 12 samples.

Results

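The transcripts of 8 genes that move, bind or release iron and zinc were examined in TNF-exposed glomeruli isolated from mice. The genes were Slc39a8, Slc39a14, Tfrc and Slc11a2 for import, Mt1 and Mt2 for binding and storage, and Slc40a1 and Cp for export. They were chosen by name, with earlier results of these data known, out of the 18194 genes with a probe set of 1 gene symbol. They carried 29 of the 45101 probe sets of the array, 3 of which are array controls made from the Tfrc transcript, and for each gene the brightest of its probe sets on average over all arrays (the lead probe set) was used. The question put to the data was whether import, storage and export changed in opposite directions when a TNF receptor was missing.

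Glomeruli came from male mice 6 to 8 weeks old on the C57Bl/6J background, were caught with magnetic beads, and were kept in culture as portions of 5000, starved of serum and then given murine TNF at 50 ng/ml for 12 hours. There were 4 genotypes with 3 arrays each: Tnfr1,2-/- without either receptor, Tnfr1-/- (B6.129-Tnfrsf1atm1Mak), Tnfr2-/- (B6.129-Tnfrsf1btm1Mwm) and wildtype, the wildtype and Tnfr1,2-/- lines having been obtained by crossing the single mutants. All 12 cultures, wildtype included, received TNF, and glomeruli without TNF were not analysed here, so the values show what receptor loss did under TNF and not what TNF did. The 3 arrays of a genotype were independent preparations, but whether each came from separate mice was not stated, so p-values measure the spread between these preparations. Affymetrix Mouse Genome 430 2.0 arrays give one log2 signal per probe set, and since whole glomeruli were measured, fewer cells of a type and less RNA per cell cannot be told apart.

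Cells take up iron bound to transferrin through the transferrin receptor (Tfrc) and pass it into the cytosol through Slc11a2 (DMT1), whereas the ZIP family members Slc39a8 (ZIP8) and Slc39a14 (ZIP14) carry zinc, manganese and iron that is not bound to transferrin. Metallothioneins (Mt1, Mt2) bind zinc and copper in the cytosol. Iron leaves through ferroportin (Slc40a1), the iron exporter of mammalian cells, and the copper protein ceruloplasmin (Cp) oxidises the released iron so that transferrin can take it up. During inflammation, macrophages and hepatocytes are known to shift this balance towards holding iron back.

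The targeted receptors followed their labels in part. Tnfrsf1b (TNFR2) read 5.51, 5.37 and 5.57 in Tnfr1,2-/- and 5.66, 4.95 and 5.38 in Tnfr2-/- glomeruli, against 7.77, 7.71 and 7.41 in wildtype. Tnfrsf1a (TNFR1) read 9.61, 9.14 and 9.11 in Tnfr1,2-/- and 9.80, 10.18 and 9.24 in Tnfr1-/- glomeruli, against 10.70, 10.73 and 10.23 in wildtype, so its arrays stood apart but a signal remained. No podocyte, endothelial, mesangial or parietal marker measured had a mean below the array medians (5.59 to 5.64), while all 4 neutrophil and all 3 erythroid markers measured did. So did 5 of 8 tubular, 3 of 10 macrophage and 3 of 5 lymphocyte markers measured. The tubular markers Fxyd2 (means of 8.09 in wildtype to 8.71 in Tnfr1-/-) and Umod (6.80 in wildtype to 7.79 in Tnfr1-/-) stood above the medians. The part of tubular cells in the signal was not tested. By how far the log2 signal at the 3′ end of beta-actin exceeded that at its 5′ end, a measure of RNA and labelling quality, the arrays formed 2 sets: the excess was 0.667 to 1.005 on 7 arrays (set 1) and 1.82 to 2.30 on 5 arrays (set 2, namely replicates 2 and 3 of Tnfr1,2-/- and replicate 3 of each other genotype).

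Import and export did change in opposite directions for one pair of genes. With loss of Tnfr1 over both Tnfr2 genotypes, that is the 6 Tnfr1,2-/- and Tnfr1-/- arrays against the 6 Tnfr2-/- and wildtype arrays, the importer Slc39a8 was 3.35-fold lower and the exporter Slc40a1 was 2.55-fold higher, but the ferroxidase Cp was 3.30-fold lower. Of the 8 genes 2 were called lower, against 1.59% of all genes, and 1 higher, against 0.929%. Together these were 3 of the 8, against 2.52% of all genes called at an adjusted p below 0.05 and a change of at least 1.5-fold, and the same 3 were the ones whose 6 arrays of each side did not overlap, against 2.98% of all genes. The study had already listed these 3 as differentially expressed against wildtype on the same arrays. It listed Slc39a8 and Cp in both genotypes without Tnfr1, and Slc40a1 in Tnfr1-/- but not in Tnfr1,2-/- glomeruli. Against wildtype, the main fit here instead called Slc40a1 in Tnfr1,2-/- but not in Tnfr1-/- glomeruli, and Cp in neither. Since the 8 genes were chosen with earlier results known, these counts do not measure enrichment. Slc39a14, Slc11a2, Tfrc, Mt1 and Mt2 were not called. The median change over the 8 genes was -0.47 on the log2 scale, beside 0.00 over all genes tested. Loss of Tnfr2 over both Tnfr1 genotypes called none of the 8 genes, against 0.0275% of all genes, and none of the 8 had an unadjusted p below 0.05 there.

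**Figure D1:**
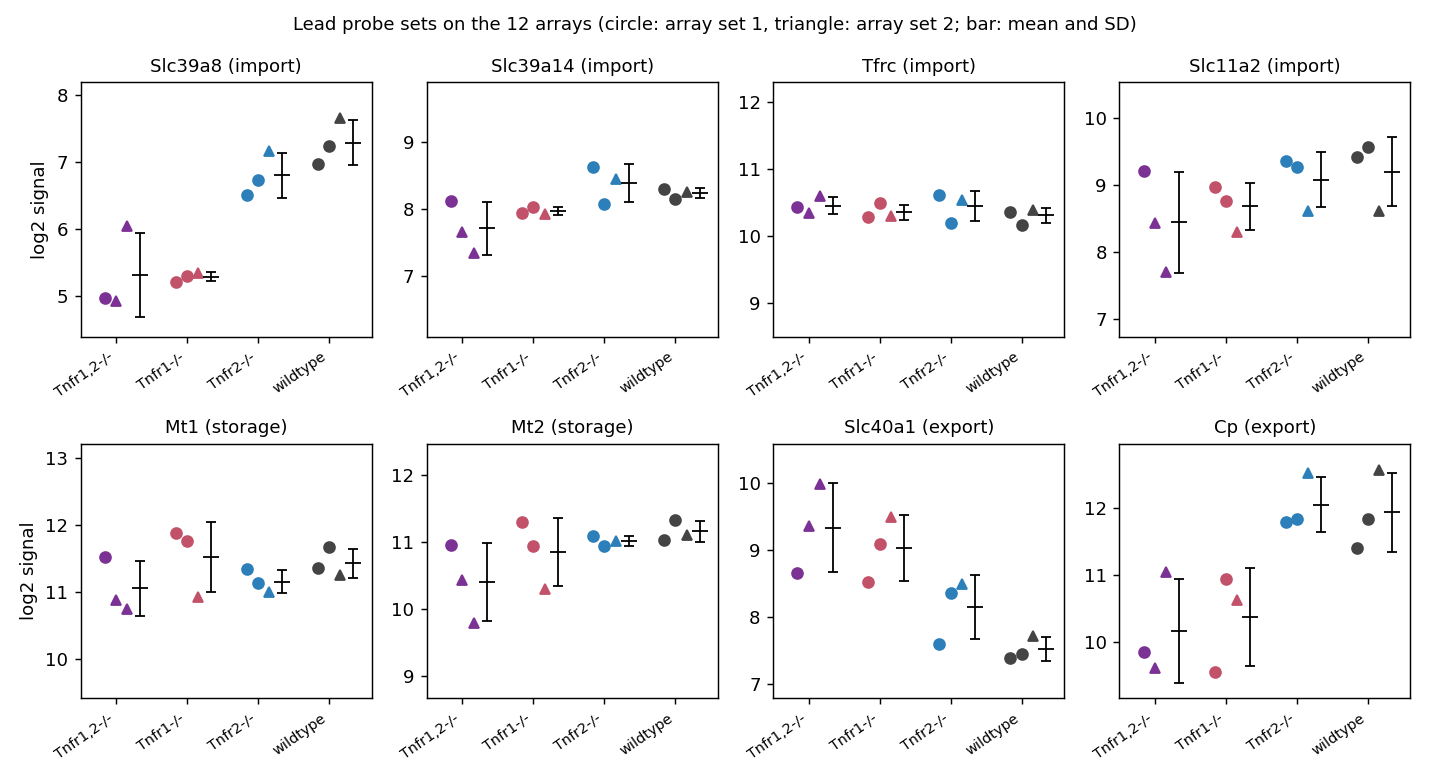
Log2 signal (vertical axes, each with its own range) of the lead probe set of the 8 genes on all 12 arrays, by genotype from Tnfr1,2-/- on the left to wildtype on the right. Circles mark set 1 and triangles set 2, and the bars give mean and SD of the 3 arrays. Slc39a8 and Cp are low and Slc40a1 is high on all 6 arrays without Tnfr1, and Tfrc stays between 10.17 and 10.61 on all 12.

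Slc39a8 showed the clearest difference among the importers. Its lead probe set (1416832_at, gene at chr3:135816882-135888572 of GRCm38.p6) gave a log2 signal of 4.98, 4.93 and 6.05 in Tnfr1,2-/-, of 5.22, 5.30 and 5.35 in Tnfr1-/-, and of 6.51, 6.74 and 7.17 in Tnfr2-/- glomeruli, against 6.98, 7.25 and 7.66 in wildtype. All 6 arrays without Tnfr1 lay below all 6 arrays with it, and 5 of these 6 lay below the array medians, so the lower end of the change is near the signal of unexpressed probe sets. With loss of Tnfr1 Slc39a8 was lower by a log2 change of -1.74 ± 0.21 (SE, limma, adjusted p = 0.00046, n = 6 against 6). Against wildtype the change was -1.98 ± 0.29 in Tnfr1,2-/- (adjusted p = 0.0046) and -2.0 ± 0.29 in Tnfr1-/- glomeruli (adjusted p = 0.0051, n = 3 each). Fitted to the arrays of Tnfr1,2-/- and wildtype alone, the call was missed (adjusted p = 0.056).

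In the order of means, Slc39a8 stood lowest in Tnfr1-/- (5.29 ± 0.07) and Tnfr1,2-/- (5.32 ± 0.63), then in Tnfr2-/- (6.81 ± 0.33) and highest in wildtype glomeruli (7.30 ± 0.34; SD, n = 3 each). The neighbours Tnfr1,2-/- and Tnfr1-/- differed by 0.02 with a 95% interval of -0.61 to 0.66. Tnfr1,2-/- lay below Tnfr2-/- by a log2 change of -1.49 ± 0.29 (adjusted p = 0.028), the single call among the 8 genes in that comparison, against 1.39% of all genes. Tnfr1-/- lay below Tnfr2-/- by a change of -1.51 ± 0.29 (adjusted p = 0.028), again the single call, against 1.2% of all genes. With the replicate number as a block, Slc40a1 and Cp were called as well in the comparison of Tnfr1-/- with Tnfr2-/- (adjusted p = 0.021 and 0.0068), which made 3 calls among the 8 genes. Both calls of Slc39a8 against Tnfr2-/-, in the fit without a block, were lost when single arrays were left out. This held for 6 of the 12 arrays for Tnfr1,2-/- (adjusted p = 0.052 to 0.13) and 7 for Tnfr1-/- (0.052 to 0.13). The call for Tnfr1,2-/- was also missed with SAM and with only the arrays compared. The Tnfr2-/- level lay below wildtype by a change of -0.49, with an interval of -1.13 to 0.15 that includes 0.

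The second probe set of Slc39a8, 1448482_at, was dim. It averaged 4.02 ± 0.43 in Tnfr1,2-/-, 4.15 ± 0.47 in Tnfr1-/- and 4.49 ± 0.91 in Tnfr2-/-, against 5.25 ± 0.80 in wildtype (SD, n = 3 each), all below the array medians. It was lower with loss of Tnfr1 by -0.78 ± 0.35 and was not called. The call of Slc39a8 therefore rests on 1 probe set.

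The stretch around an annotated start of Slc39a8 is printed because this gene had the smallest adjusted p among the 8. It covers chr3:135825029-135825328 of GRCm38.p6 on the plus strand, 250 bases before to 50 bases after the start, as given by RefSeq, and it lies inside the annotated span of the gene. The capitals mark a match on the minus strand to the antioxidant response element (TGACNNNGC, searched on both strands), a motif of 12.4% of the 32851 promoters of the same 300 bases. The window held no match to the metal response element, the hypoxia response element or the NF-kB consensus. A match is a match of letters and not evidence of binding, and a lack of one says only that these letters are absent from the window.
Slc39a8 promoter: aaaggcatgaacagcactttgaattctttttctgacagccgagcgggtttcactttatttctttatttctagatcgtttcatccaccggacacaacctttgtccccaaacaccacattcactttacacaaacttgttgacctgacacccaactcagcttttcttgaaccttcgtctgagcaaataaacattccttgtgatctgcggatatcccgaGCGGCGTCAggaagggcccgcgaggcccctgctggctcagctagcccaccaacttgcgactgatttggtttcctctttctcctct

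Slc39a14, the closest relative of Slc39a8 among the 8 genes, moved less. Its lead probe set (1427035_at, gene at chr14:70303467-70351452) read 8.13, 7.66 and 7.36 in Tnfr1,2-/-, 7.95, 8.04 and 7.94 in Tnfr1-/-, and 8.63, 8.09 and 8.46 in Tnfr2-/- glomeruli, against 8.30, 8.15 and 8.27 in wildtype. The Tnfr1,2-/- arrays and the Tnfr1-/- arrays each lay below those of wildtype without overlap, by log2 changes of -0.53 ± 0.20 (adjusted p = 0.43) and -0.27 ± 0.20 (adjusted p = 0.9999). Over both Tnfr2 genotypes the change was -0.47 ± 0.14 and not called (adjusted p = 0.13), with a 95% interval of -0.78 to -0.17. The other 3 probe sets of Slc39a14 changed by -0.20 to 0.05 there. In Tnfr1,2-/- against Tnfr2-/- glomeruli Slc39a14 was called only with array weights and in 1 fit with an array left out.

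The transferrin route of iron import gave no call in the main fit. Tfrc (1452661_at, chr16:32608896-32632794) read 10.42, 10.34 and 10.59 in Tnfr1,2-/-, 10.28, 10.48 and 10.29 in Tnfr1-/-, and 10.61, 10.19 and 10.53 in Tnfr2-/- glomeruli, against 10.36, 10.17 and 10.38 in wildtype. All 4 genotypes overlapped, and the change with loss of Tnfr1 was 0.03 ± 0.10 with a 95% interval of -0.20 to 0.25, the narrowest interval of the 8 genes. Slc11a2 (1452078_a_at, chr15:100387898-100424209) read 9.21, 8.44 and 7.70 in Tnfr1,2-/-, 8.98, 8.77 and 8.30 in Tnfr1-/-, and 9.35, 9.28 and 8.61 in Tnfr2-/- glomeruli, against 9.43, 9.57 and 8.62 in wildtype. These arrays overlapped between all genotypes, and within each of the 4 genotypes the arrays of set 2 lay below those of set 1. Its change with loss of Tnfr1 was -0.58 ± 0.27 (adjusted p = 0.46), and it was -0.37 on the arrays of set 1 and -0.43 on those of set 2. All 4 probe sets of Slc11a2 were lower, by -0.58 to -0.20, and none was called. In Tnfr1,2-/- against wildtype glomeruli, Slc11a2 was called with array weights and with the replicate number as a block.

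The metallothioneins were bright on every array and were not called in any comparison of the main fit. With array weights, Mt2 was called lower in Tnfr1,2-/- than in wildtype glomeruli. Mt1 (1422557_s_at, chr8:94178883-94180327) read 11.53, 10.89 and 10.75 in Tnfr1,2-/-, 11.87, 11.75 and 10.92 in Tnfr1-/-, and 11.33, 11.14 and 10.995 in Tnfr2-/- glomeruli, against 11.36, 11.67 and 11.25 in wildtype. All genotypes overlapped, and the change with loss of Tnfr1 was -0.01 ± 0.19. As with Slc11a2, the set 2 arrays were the lowest on the lead probe set of Mt1 within each of the 4 genotypes. On its other probe set, 1451612_at, the set 2 array was the highest in wildtype (6.71 against 6.24 and 6.43). There it was the lowest in Tnfr1-/- glomeruli (6.19 against 6.70 and 6.39), and the other genotypes were mixed. Mt2 (1428942_at, chr8:94172618-94173567) read 10.96, 10.43 and 9.80 in Tnfr1,2-/-, 11.31, 10.94 and 10.30 in Tnfr1-/-, and 11.10, 10.95 and 11.02 in Tnfr2-/- glomeruli, against 11.04, 11.34 and 11.11 in wildtype. The 3 Tnfr1,2-/- arrays lay below the wildtype arrays, by a log2 change of -0.76 ± 0.29 that did not pass (adjusted p = 0.45). With loss of Tnfr1 Mt2 changed by -0.47 ± 0.20 (adjusted p = 0.42), and it changed by -0.06 on set 1 and by -0.85 on set 2, so nearly all of the difference lay on the arrays with the larger beta-actin difference. The part of array quality in this was not tested.

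Mt1 and Mt2 lie next to each other, and their promoters are printed to show the metal response element, the site of the zinc sensor MTF1, through which metallothionein transcripts rise with free zinc. The windows are chr8:94172368-94172667 for Mt2 and chr8:94178839-94179138 for Mt1 (plus strand, GRCm38.p6, RefSeq), 250 bases before to 50 after the start. Capitals mark the motif TGCACNC or TGCGCNC on either strand, of which Mt2 held 4 and Mt1 held 3. At least 1 match stood in 25.7% of all 32851 promoters of this length and 4 or more stood in 0.517%. The third match of Mt2 overlapped a hypoxia response element (ACGTG or GCGTG, in 43.8% of promoters), and Mt2 also held 1 antioxidant response element.
Mt2 promoter: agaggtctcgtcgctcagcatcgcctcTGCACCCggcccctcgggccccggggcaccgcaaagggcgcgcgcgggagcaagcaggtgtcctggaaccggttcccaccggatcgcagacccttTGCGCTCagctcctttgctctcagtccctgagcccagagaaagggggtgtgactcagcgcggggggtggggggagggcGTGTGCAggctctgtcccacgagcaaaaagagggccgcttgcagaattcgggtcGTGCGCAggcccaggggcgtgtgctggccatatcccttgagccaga
Mt1 promoter: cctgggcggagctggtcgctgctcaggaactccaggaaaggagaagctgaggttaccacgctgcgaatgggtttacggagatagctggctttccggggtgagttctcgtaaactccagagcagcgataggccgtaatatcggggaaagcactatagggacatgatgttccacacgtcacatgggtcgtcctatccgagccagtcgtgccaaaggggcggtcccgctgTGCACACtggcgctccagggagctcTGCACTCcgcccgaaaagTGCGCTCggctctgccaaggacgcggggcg

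Of the 8 genes, 5 had a promoter entry, in 8 sequences. The 2 windows of Cp held none of the 4 motifs searched, the second window of Slc39a8 held 1 metal and 3 hypoxia response elements, and the first of the 2 windows of Tfrc held 2 metal response elements that overlap each other. Slc40a1, Slc39a14 and Slc11a2 had no entry.

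Ferroportin, Slc40a1, moved opposite to Slc39a8. Its lead probe set (1417061_at, chr1:45908070-45926532) read 8.65, 9.36 and 9.98 in Tnfr1,2-/-, 8.52, 9.09 and 9.49 in Tnfr1-/-, and 7.60, 8.36 and 8.49 in Tnfr2-/- glomeruli, against 7.38, 7.45 and 7.72 in wildtype. The 6 arrays without Tnfr1 lay above the 6 with it, although the lowest of them (8.52) and the highest Tnfr2-/- array (8.49) were nearly level. With loss of Tnfr1 it was higher by a log2 change of 1.35 ± 0.25 (adjusted p = 0.011), with a 95% interval of 0.81 to 1.89. In Tnfr1,2-/- glomeruli the change against wildtype was 1.81 ± 0.35 (adjusted p = 0.027), a 3.52-fold difference. This call was lost without any 1 of the 3 wildtype arrays or without Tnfr1,2-/- replicate 2 or 3 (adjusted p = 0.063 to 0.12). In Tnfr1-/- glomeruli it was 1.52 ± 0.35 and missed the threshold (adjusted p = 0.076), although it passed with the replicate number as a block (adjusted p = 0.00060), with the array set as a block (0.0034), with the mean of both probe sets (0.012) and with the SAM procedure (q = 0.0033).

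The genotype means of Slc40a1 formed a graded order, 9.33 ± 0.67 in Tnfr1,2-/-, 9.03 ± 0.49 in Tnfr1-/-, 8.15 ± 0.48 in Tnfr2-/- and 7.52 ± 0.18 in wildtype glomeruli (SD, n = 3 each). Without a block, no neighbours in this order passed the test against each other. Tnfr1,2-/- exceeded Tnfr1-/- by 0.30 (95% interval -0.47 to 1.07), Tnfr1-/- exceeded Tnfr2-/- by 0.88 (0.12 to 1.65, adjusted p = 0.61, or 0.021 and called with the replicate number as a block), and Tnfr2-/- exceeded wildtype by 0.63 (-0.14 to 1.40). Set 2 held replicates 2 and 3 of Tnfr1,2-/- but only replicate 3 of each other genotype, so the top step is mixed with array set. Within set 1 the Tnfr1,2-/- array (8.65) lay between the Tnfr1-/- arrays (8.52 and 9.09). Within set 2 the Tnfr1-/- array (9.49) lay between those of Tnfr1,2-/- (9.36 and 9.98). The second probe set, 1448566_at, had the same order of means. It averaged 8.09 ± 0.34, 7.88 ± 0.14 and 7.27 ± 0.29 in Tnfr1,2-/-, Tnfr1-/- and Tnfr2-/- glomeruli, against 6.64 ± 0.58 in wildtype. It was called for loss of Tnfr1 as well (1.03 ± 0.20, adjusted p = 0.023 over all probe sets).

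Within every genotype, the lead probe set of Slc40a1 read higher on set 2 than on set 1, the reverse of the lead probe sets of Mt1 and Slc11a2. The second probe set, 1448566_at, read lower on set 2 in wildtype (5.97 against 6.89 and 7.05) and Tnfr1-/- (7.72 against 7.93 and 8.00). It did so in Tnfr2-/- too (7.04 against 7.18 and 7.59) and was mixed in Tnfr1,2-/- glomeruli (7.72 and 8.40 against 8.15). For the lead probe set of Slc40a1 taken within the sets, the log2 change with loss of Tnfr1 was 1.03 on set 1 and 1.48 on set 2. With the set as a block it was 1.24 (adjusted p = 0.00061). Slc39a8 changed by -1.75 on set 1 and -1.99 on set 2, and Cp by -1.67 and -2.07. All 3 changes kept their direction within both sets. Set 2 held only replicate 3 of Tnfr1-/-, Tnfr2-/- and wildtype, and set 1 only replicate 1 of Tnfr1,2-/-. The values within a set thus rest partly on single arrays, and neither set alone was tested.

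Ceruloplasmin, although grouped with export, moved with Slc39a8. The lead probe set of Cp (1417494_a_at, chr3:19956933-20009750) read 9.85, 9.61 and 11.05 in Tnfr1,2-/-, 9.55, 10.95 and 10.63 in Tnfr1-/-, and 11.80, 11.83 and 12.53 in Tnfr2-/- glomeruli, against 11.41, 11.83 and 12.57 in wildtype. The highest array without Tnfr1 (11.05) lay below the lowest array with it (11.41). With loss of Tnfr1 Cp was lower by a log2 change of -1.72 ± 0.32 (adjusted p = 0.012), with a 95% interval of -2.43 to -1.02. Against wildtype alone, where 3 arrays met 3, the changes of -1.77 ± 0.45 in Tnfr1,2-/- and -1.56 ± 0.45 in Tnfr1-/- glomeruli were not called (adjusted p = 0.13 and 0.21). With the array set as a block they were called (-1.98, adjusted p = 0.014, and -1.56, adjusted p = 0.042). In Tnfr1-/- glomeruli Cp was also called with the replicate number as a block (adjusted p = 0.011), so that 3 of the 8 genes were called against wildtype in that fit and 1 without it. In Tnfr2-/- glomeruli Cp differed from wildtype by 0.12 ± 0.45.

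Cp was the member with most probe sets, and all 8 were lower with loss of Tnfr1, by -2.29 to -0.84, of which 6 were called over all probe sets. Their means ran over a wide span of signal, between 3.76 and 11.13. Slc40a1 was higher on both of its probe sets and Slc39a8 lower on both, so the 3 called genes had no probe set that moved the other way. Tfrc, by contrast, had 4 probe sets lower and 2 higher, none beyond 0.22 in size, and its 3 control probe sets are among these 6.

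**Figure D2:**
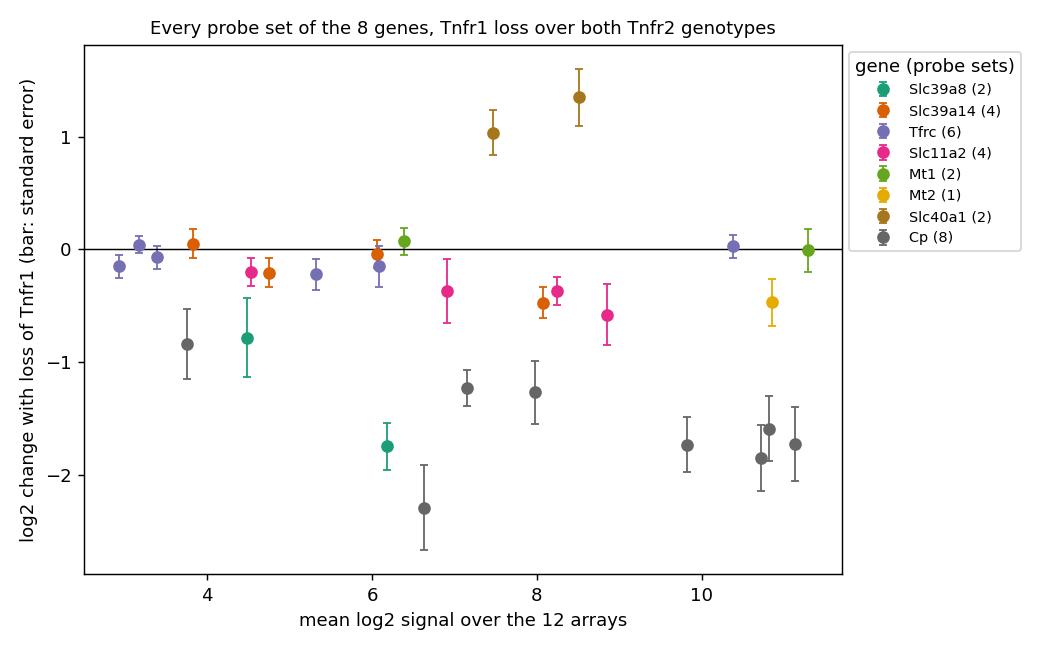
Log2 change with loss of Tnfr1 over both Tnfr2 genotypes (vertical axis, bar: standard error) against mean log2 signal over the 12 arrays (horizontal axis) for all 29 probe sets of the 8 genes. The 8 probe sets of Cp lie between -2.29 and -0.84 at all signal levels, both of Slc40a1 lie above 1, and those of Tfrc lie near 0.

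Set side by side against wildtype, with the wildtype arrays shared, Tnfr1,2-/- glomeruli had 2 of the 8 genes called, Slc39a8 lower and Slc40a1 higher, against 1.3% of all genes. In 5 of the 8 (these 2, Cp, Mt2 and Slc39a14) the arrays did not overlap those of wildtype, against 12.4% of all genes. Tnfr1-/- glomeruli had 1 of the 8 called, Slc39a8, against 1.2%, and 4 (Slc39a8, Slc40a1, Cp and Slc39a14) that did not overlap, against 11%. Tnfr2-/- glomeruli had none called, against 0.0%, and none without overlap, against 4.94%. Here limma called no gene at all, 128 genes had an unadjusted p below 0.05 without any of the 8 among them, and SAM called 4 genes, none of the 8. Even the targeted gene Tnfrsf1b, with a log2 change of -2.30, was not called by limma (adjusted p = 0.12).

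**Figure D3:**
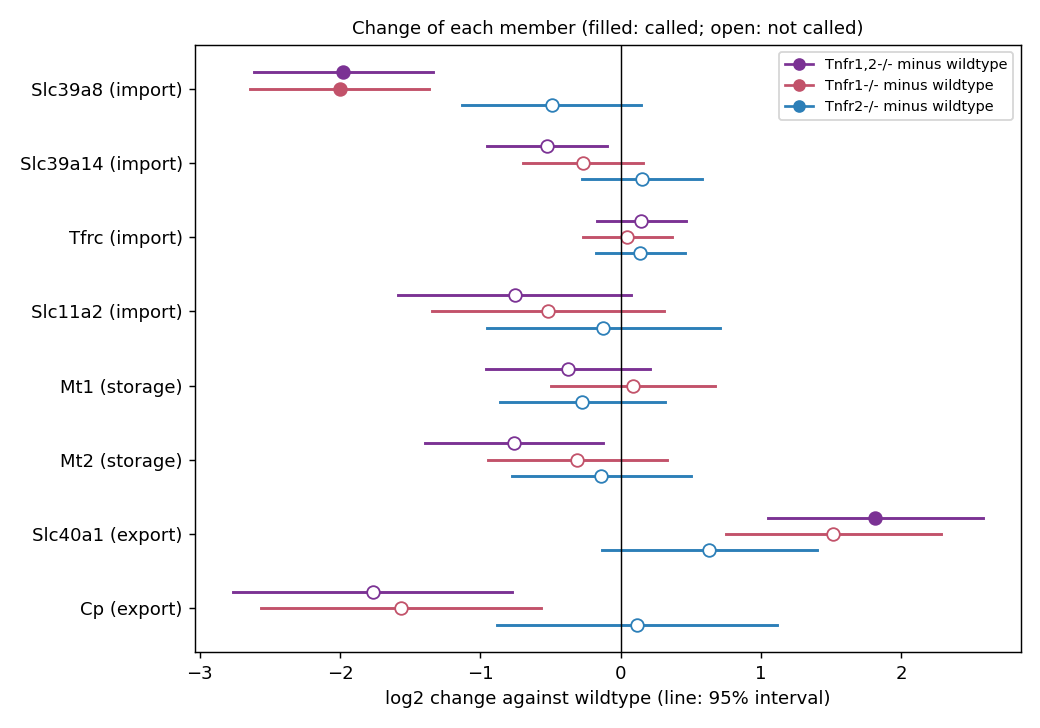
Log2 change of each gene against wildtype (horizontal axis, line: 95% interval) in Tnfr1,2-/-, Tnfr1-/- and Tnfr2-/- glomeruli, 3 arrays each. Filled points were called at an adjusted p below 0.05 and at least 1.5-fold. Slc39a8 lies near -2 and Slc40a1 above 1.5 in both genotypes without Tnfr1, and all Tnfr2-/- intervals include 0.

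Whether loss of the second receptor added to loss of the first was asked by comparing Tnfr1,2-/- with Tnfr1-/- glomeruli. None of the 8 genes was called, against 0.0055% of all genes, and none had an unadjusted p below 0.05. An interaction of the 2 losses was called for none of the 8 genes (limma, 0.0% of all genes called, 245 genes with an unadjusted p below 0.05). Its intervals were wide, -0.39 to 1.42 for Slc39a8, -1.42 to 0.75 for Slc40a1 and -1.73 to 1.09 for Cp, so an interaction of 1 in size on the log2 scale was within each of them.

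**Figure D4:**
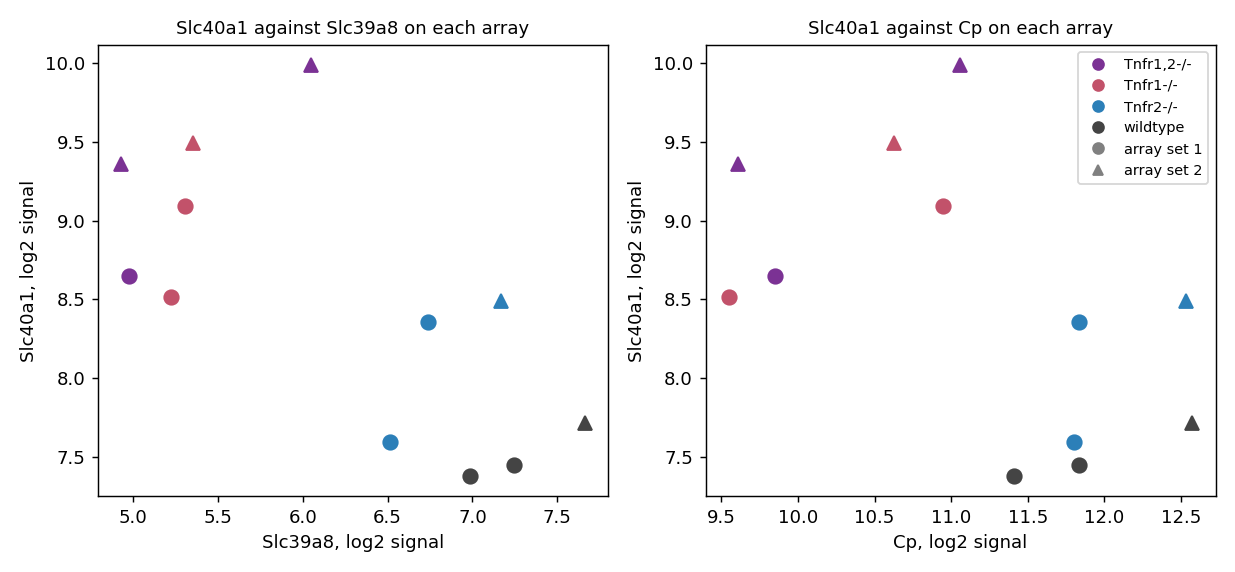
Log2 signal of the exporter Slc40a1 (vertical axes) against that of the importer Slc39a8 (left) and of Cp (right), one point per array, coloured by genotype, with circles for set 1 and triangles for set 2. The 6 arrays without Tnfr1 lie at the upper left of both panels, at 8.52 or above for Slc40a1. Within each genotype the set 2 arrays lie highest on Slc40a1, whose lead probe set is shown.

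Of 80 further genes of iron, zinc and copper handling, listed by function, 78 were measured. In Tnfr1,2-/- glomeruli 2 were lower and 2 higher than in wildtype, where 1.3% of all genes were called in either direction. In Tnfr1-/- glomeruli 2 were lower and 1 higher, against 1.2% of all genes, and 5 were called with the replicate number as a block. In Tnfr2-/- glomeruli none was called. With loss of Tnfr1 over both Tnfr2 genotypes 4 were lower and 2 higher, against 2.52% of all genes, and the median of the 78 was -0.05, beside 0.00 over all genes. None of the 5 genes of iron storage and ferritin turnover, 8 of haem breakdown and synthesis, 10 zinc exporters of the ZnT family, 3 of metallothioneins and metal sensing or 7 of copper handling was called in that comparison.

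Haptoglobin (Hp), which binds free haemoglobin so that its iron is not lost, fell furthest among these genes. Hp read 8.84, 8.90 and 8.16 in Tnfr1,2-/-, 8.46, 8.41 and 8.54 in Tnfr1-/-, and 12.43, 12.58 and 12.03 in Tnfr2-/- glomeruli, against 12.42, 12.36 and 12.35 in wildtype. The log2 change against wildtype was -3.74 ± 0.20 for Tnfr1,2-/- (adjusted p = 6.2e-06) and -3.90 ± 0.20 for Tnfr1-/- (adjusted p = 4.6e-06). Steap4, a reductase that converts iron and copper for uptake, read 6.30, 6.76 and 6.62 in Tnfr1,2-/-, 6.87, 6.48 and 6.85 in Tnfr1-/-, and 7.48, 7.77 and 8.05 in Tnfr2-/- glomeruli, against 7.80, 7.75 and 7.64 in wildtype. Its changes against wildtype were -1.17 ± 0.18 in Tnfr1,2-/- (adjusted p = 0.0062) and -0.995 ± 0.18 in Tnfr1-/- glomeruli (adjusted p = 0.020).

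On the side of higher signal stood an exporter and a receptor. Abcg2, an efflux pump whose substrates include porphyrins, read 9.75, 9.96 and 10.24 in Tnfr1,2-/-, 9.82, 9.59 and 9.99 in Tnfr1-/-, and 8.64, 8.76 and 8.97 in Tnfr2-/- glomeruli, against 8.69, 8.42 and 8.81 in wildtype. It rose by 1.34 ± 0.17 in Tnfr1,2-/- (adjusted p = 0.0021) and by 1.16 ± 0.17 in Tnfr1-/- glomeruli (adjusted p = 0.0055). Scara5, a scavenger receptor that takes up ferritin, read 6.13, 6.49 and 7.08 in Tnfr1,2-/-, 6.31, 6.32 and 6.77 in Tnfr1-/-, and 5.76, 5.71 and 5.77 in Tnfr2-/- glomeruli, against 5.58, 5.03 and 5.57 in wildtype. It rose by 1.18 ± 0.24 in Tnfr1,2-/- glomeruli (adjusted p = 0.036), and its difference of 1.07 in Tnfr1-/- glomeruli was not called (adjusted p = 0.064).

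Bmp2 and Slc39a4, named after their values were seen, were called with loss of Tnfr1 over both Tnfr2 genotypes but not against wildtype. Bmp2, a growth factor that in mouse liver supports hepcidin expression, changed by -1.54 ± 0.29 (adjusted p = 0.013), with arrays that did not overlap. Slc39a4, the zinc importer ZIP4 of the intestine, changed by -1.38 ± 0.25 (adjusted p = 0.0098), and was called in Tnfr1,2-/- against Tnfr2-/- glomeruli as well (-1.86 ± 0.35, adjusted p = 0.024). Its arrays overlapped between glomeruli without and with Tnfr1, and its means in both genotypes without Tnfr1 (4.31 and 4.74) were under the array medians.

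The fixed controls of iron and zinc state were not called anywhere. Fth1, the heavy chain of ferritin, averaged 13.10 ± 0.57 in Tnfr1,2-/-, 13.51 ± 0.37 in Tnfr1-/- and 13.75 ± 0.16 in Tnfr2-/-, against 13.69 ± 0.22 in wildtype (SD, n = 3 each), and changed by -0.41 ± 0.19 with loss of Tnfr1 (adjusted p = 0.46). Aco1 and Ireb2, the iron regulatory proteins that bind ferritin, ferroportin and transferrin receptor transcripts, changed by 0.14 ± 0.18 and 0.01 ± 0.09. Slc30a1, the zinc exporter ZnT1, changed by 0.26 ± 0.11 (adjusted p = 0.41), and Mtf1, the zinc sensor, by 0.01 ± 0.12. Hmox1, which opens the haem ring and frees its iron, spread from 7.95 to 11.10 within Tnfr1,2-/- glomeruli and changed by -0.45 ± 0.47. Hamp, which encodes hepcidin, averaged below the array medians in all 4 genotypes.

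**Figure D5:**
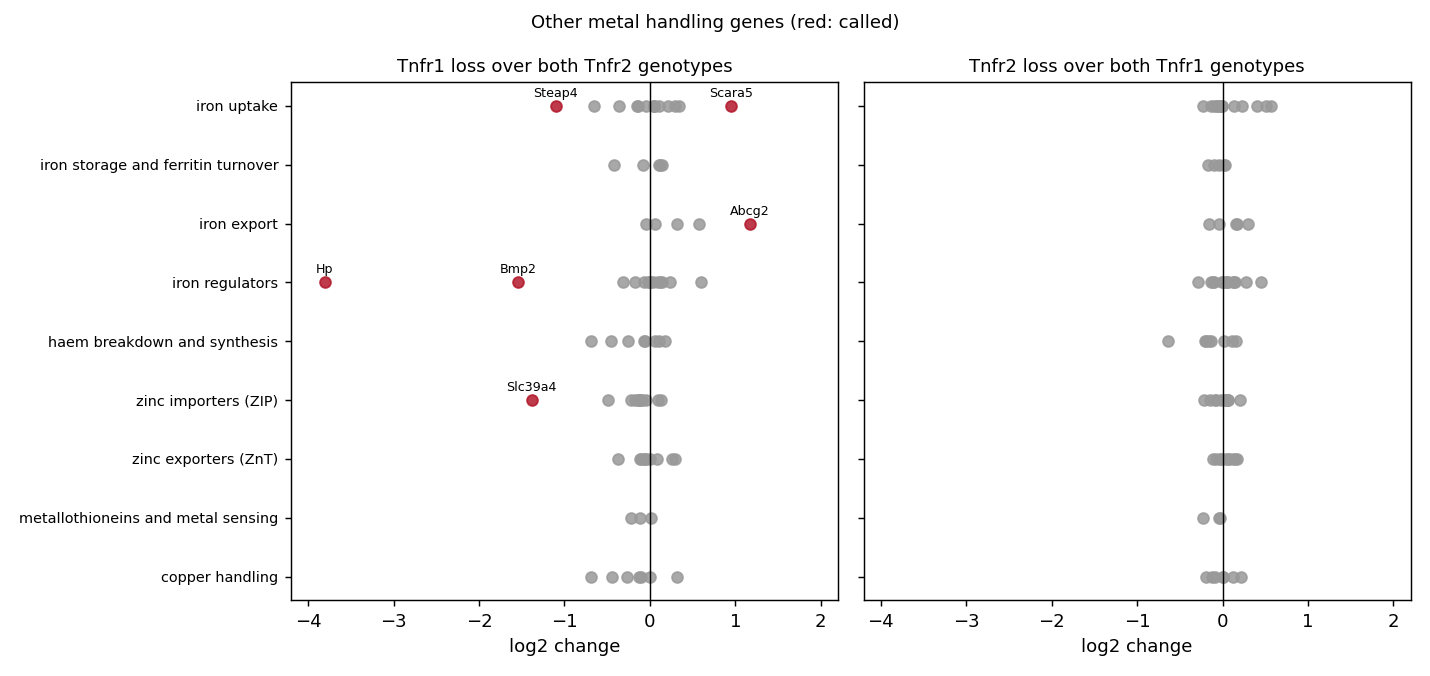
Log2 change (horizontal axes) of the 78 other metal handling genes by function, with loss of Tnfr1 over both Tnfr2 genotypes (left) and with loss of Tnfr2 over both Tnfr1 genotypes (right), one point per gene. Red points were called. On the left Hp, Bmp2, Slc39a4 and Steap4 are lower and Abcg2 and Scara5 are higher, and on the right no gene was called.

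Macrophages are a known site of both Slc40a1 and Slc39a8. None of the 10 macrophage markers was called in any comparison with wildtype or with loss of Tnfr1. Their summed linear signal was 3069 to 4729 in Tnfr1,2-/-, 3606 to 8689 in Tnfr1-/- and 4758 to 9262 in Tnfr2-/-, against 4831 to 7628 in wildtype. The sums of Tnfr1,2-/- lay below those of wildtype, although 5 of the 10 markers were higher and 5 lower there, with a median log2 change of -0.08. Slc40a1 lay above wildtype in these glomeruli and Slc39a8 below it. The 7 endothelial markers summed to 5201 to 6882 in Tnfr1,2-/-, 6039 to 8058 in Tnfr1-/- and 5734 to 7304 in Tnfr2-/-, against 3931 to 5123 in wildtype, with 1 of the 7 called in Tnfr1-/- glomeruli. These sums were higher in all mutants, although 2 of the 7 markers were lower in Tnfr1,2-/-. There the podocyte sums (21973 to 26628 against 14808 to 19193, 5 of 5 markers higher) and mesangial sums (14315 to 22296 against 9902 to 14275, 5 higher and 1 lower) also exceeded wildtype. The neutrophil sums lay below it (62.9 to 79.9 against 80.3 to 91.5, 3 lower and 1 higher). None of these podocyte, mesangial or neutrophil markers was called in Tnfr1,2-/- against wildtype glomeruli, with the smallest adjusted p at 0.056 for Itga8 (limma). Markers of 3 other cell types included single calls with loss of Tnfr1, 1 of 6 mesangial and 1 of 5 parietal markers higher and 1 of 4 neutrophil markers lower. The part of cell composition in the changes of the 8 genes was not tested.

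The genes most like the 3 called members over the 12 arrays, by Pearson's r among 10895 genes with a mean log2 signal of at least 6, were found as a description, and all arrays share the split by Tnfr1. Slc39a8 was most like Kalrn (0.956), Marco, a scavenger receptor of macrophages (0.952), and Papss2, which makes the sulfate donor of sulfation (0.952). Cp was most like the guanylate-binding protein Gbp7 (0.973), the ubiquitin ligase Dtx3l (0.952) and Birc3, an inhibitor of apoptosis (0.948). Slc40a1 was most like the oxysterol-binding protein Osbpl2 (0.968), the lysosomal membrane protein Tmem106b (0.947) and the adaptor Sh3bp5 (0.947). The genes like Slc40a1 lay higher on average in both genotypes without Tnfr1, and those like Slc39a8 and Cp lay lower.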

How the data were processed

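RNA of TNF-exposed glomeruli was hybridised to 12 arrays, 3 per genotype. Per the study's methods, the authors normalised all 12 arrays together by robust multichip average (RMA), and the deposited values are log2 signals per probe set. RMA shares its quantile step over arrays, which hides a shift of the whole transcriptome and compresses low signals. No depth applies to arrays, and the number of arrays limits the precision.

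Of 45101 probe sets, 34958 had 1 gene symbol in the platform annotation, 932 several and 9211 none, which gave 18194 genes through their lead probe sets. Genes were tested with limma 3.58.1 (R 4.3.3; lmFit and eBayes on all 12 arrays, 8 residual degrees of freedom), with Benjamini-Hochberg adjustment over all genes, and called at an adjusted p below 0.05 and at least 1.5-fold. The procedure was tested on simulated data. Comparisons were the 6 pairs of genotypes, the mean effect of each receptor over both genotypes of the other, and the interaction. Alternatives were the mean of probe sets, probe sets without shared transcripts, only the arrays compared, a variance trend, array weights, fold thresholds, median centring, cyclic loess, a filter on low values, array set and replicate blocks, each array set alone, SAM and leaving out each array. Deviations of same-numbered arrays from their genotype means correlated above 0.1 in all 9 pairs among Tnfr1-/-, Tnfr2-/- and wildtype (0.18 to 0.73). Differently numbered arrays of set 1 among these genotypes did so as well (0.15 to 0.43). The correlation therefore cannot tell pairs from a shared array set, and whether the numbers mark pairs stayed unknown. The main fit used genotype only, and the replicate block was an alternative. Replicate 2 of Tnfr1,2-/- reached at most -0.0046 with the same-numbered arrays of the other 3 genotypes. Replicate 3 of every genotype lies in array set 2, so number and set partly coincide.

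Named genes were all 8 members, the listed metal handling genes called against wildtype, 7 controls of iron and zinc state that were measured, and the 3 genes most alike to each called member. Ftl1 and Trf were not matched. The members and lists were chosen with earlier results of these data known. Coordinates and promoters are from RefSeq on GRCm38.p6.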

Additional observations from a re-analysis of the deposited data

How the results depend on the processing

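The calls of Slc39a8, Slc40a1 and Cp with loss of Tnfr1 over both Tnfr2 genotypes held under all 11 alternatives that could be tested and without any 1 of the 12 arrays, with log2 changes of -1.93 to -1.26, 1.19 to 1.52 and -1.94 to -1.52 over these settings. No called change of the 8 genes turned its direction. Counts of the 8 genes called did move in the smaller comparisons. For Tnfr1,2-/- against wildtype (2 called) the count was 0 when only the arrays compared were fitted, 5 with array weights, 4 with the replicate block and 1 to 2 with an array left out. With the mean of probe sets and with the array set as a block, Cp was called there in addition to these 2. For Tnfr1-/- against wildtype (1 called) it was 2 with the mean of probe sets, 3 with array weights, 3 with the array set as a block, 3 with the replicate block, 2 with SAM and 1 to 2 with an array left out. For Tnfr1,2-/- against Tnfr2-/- (1 called) it was 2 with the mean of probe sets, 0 with only the arrays compared, 4 with array weights, 2 with the array set as a block, 3 with the replicate block and 0 to 2 with an array left out. For Tnfr1-/- against Tnfr2-/- (1 called) it was 2 with array weights, 2 with the array set as a block, 3 with the replicate block, 2 with SAM and 0 to 1 with an array left out. Other metal handling genes called in Tnfr1,2-/- against wildtype (4) numbered 2 with the mean of probe sets, 7 with array weights and 7 with the replicate block, and in Tnfr1-/- against wildtype (3) they numbered 5 with array weights, with the array set as a block and with the replicate block. The cause of these moves was not tested.

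Slc40a1 in Tnfr1,2-/- against wildtype lost its call without wildtype replicate 1, 2 or 3 (adjusted p = 0.12, 0.12 and 0.063) or without Tnfr1,2-/- replicate 2 or 3 (0.11 and 0.095), and with only the arrays compared (0.067). Slc39a8 lost its call against Tnfr2-/- without any Tnfr2-/- array or without wildtype replicate 2, and also without Tnfr1,2-/- replicate 1 or 2 in the one comparison and without any Tnfr1-/- array in the other (adjusted p = 0.052 to 0.13). In Tnfr1,2-/- against Tnfr2-/- it was also not called with only the arrays compared or with SAM, and SAM called Cp there instead. With the replicate number as a block, Slc40a1 and Cp were called in Tnfr1-/- against wildtype (adjusted p = 0.00060 and 0.011). In comparisons with Tnfr1,2-/-, where same-numbered arrays did not all correlate, 4 of the 8 genes were called against wildtype and 3 against Tnfr2-/- with that block. SAM was not run for the comparisons of 6 against 6 arrays or the interaction, and each array set alone gave differences without a test. Signals below the array medians, as for Slc39a8 without Tnfr1, limit the size of a fall that can be read.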
